A study of Drosophila melanogaster with 10 samples.

Results

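Cells of Drosophila melanogaster eye-antennal imaginal discs from a Jarid2 mutant line were compared with control disc cells, as the 4 disc arrays among the 10 1-colour Affymetrix arrays of a study of Jarid2 and Polycomb repression. The members were chosen by title alone, which gave 2 arrays of mutant and 2 arrays of control disc cells, and every probe set that is not a control of the array maker entered, 18769 in all. Per the labels, the mutant carries the Minos insertion allele Jarid2MB00996, kept over the balancer TM3, and the genotype of the controls reads wild type. Whether mutant animals carried the allele on both chromosomes, and which other transgenes either group carried, the sources used here do not give. Flies of all groups were raised at 25 °C. Discs came from late third-instar larvae, about 500 were dissected, trypsinised and broken up with a needle, and the freed cells were sorted by GFP fluorescence into TRIZOL. Nor do they give the source of the GFP or the fraction kept, so a difference between the groups in what the sort let through cannot be told apart from an effect of the genotype. The 4 arrays of control and Jarid2 mutant third-instar whole larvae, with RNA from 20 ground animals each, serve below to show where disc cells differ.

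Jarid2 is a DNA-binding Jumonji family protein that associates with Polycomb repressive complex 2, the complex that methylates histone H3 at lysine 27 and keeps developmental genes silent. The eye-antennal disc is a folded epithelium of progenitors in which photoreceptors arise behind a moving furrow. Glia migrate into it along the optic stalk, myoblasts can lie beneath it, and haemocytes, the blood cells, adhere to its basement membrane. RNA of a disc preparation can therefore hold transcripts of all of these cells.

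Levels below are the deposited log2 expression values, differences are mutant minus control on that log2 scale with their standard error, and each group has n = 2 arrays. Adjusted p-values come from limma fitted to all 10 arrays, which include 2 arrays of larvae labelled E(z) RNAi, and a gene was called at an adjusted p under 0.05. Upper quartiles of the disc arrays lay between 9.41 and 9.47 and their lower quartiles, taken here as near background, between 4.20 and 4.27. Replicate arrays correlated at 0.9967 in controls and 0.997 in mutants over the probe sets, a figure that describes the arrays and counts no replicates. The labels do not say that replicates came from separate dissections, and what spread enters the p-values is that between arrays, which may be technical. That spread is pooled over all 5 groups, larvae included. Median replicate standard deviations were 0.116 to 0.137 in the larval groups, 0.0712 in disc controls and 0.0842 in disc mutants. These medians are over all probe sets. Genes called lower were less alike between the 2 control arrays, with a median difference of 0.36. With the disc arrays fitted alone, limma gave srp an adjusted p of 0.00142, against 1.19e-05 in the fit of all arrays.

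The label of the tissue was borne out by its markers. All 11 measured disc markers lay above the array medians, and 10 of them above the upper quartile of the control arrays, among them eya at a control mean of 12.23 and dac at 12.25, both nuclear regulators of retinal fate. The gene ct lay at 7.71. Of 3 fat body markers 2 lay under the array medians in all disc arrays, and of 2 tracheal markers 1 did, vvl, at a control mean of 4.88. The serum protein gene Lsp2 read 5.47, the other tracheal gene, btl, 6.01, and the wing and leg disc genes vg and nub 5.84 and 6.85, beside control medians of 5.62. None of these lay above the upper quartile of the controls. The haemocyte markers were not low. Averaged over 10 of them, control arrays read 10.58 and 11.59 and mutant arrays 5.83 and 6.21. Glial markers, 5 genes, averaged 9.13 and 8.92 in controls and 8.45 and 8.25 in mutants, and the myoblast genes twi and htl together averaged 8.16 and 7.43 against 6.10 and 5.60. The 4 lymph gland markers averaged 9.13 and 9.51 in controls and 8.08 and 7.85 in mutants, and 2 of the 4 were called lower.

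Jarid2 itself read 10.14 and 10.10 in control arrays against 7.64 and 6.80 in mutant arrays. The groups were far apart, and the mutant cells kept more signal than the lower quartile of their arrays, with the second mutant array the lower of the pair. The difference was -2.90 ± 0.24 (adjusted p = 0.000465), and it kept its call whichever disc array was left out. Of the 8 other measured PRC2 subunits and partners 0 were called by limma, and 2 had an unadjusted p under 0.05, both higher. The 3 nearest measured genes on either side of Jarid2 on chromosome arm 3L were not called, their adjusted p-values running from 0.325 for pall to 0.983 for CG32036.

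More genes were called lower than higher in mutant disc cells. Of 11982 genes measured, 413 were called, or 3.45%, of which 334 were lower (2.79%) and 79 higher (0.659%). The losses were also the larger changes. Among called genes 169 were at least 4-fold lower and 2 at least 4-fold higher, 65 were at least 16-fold lower, and 10 were at least 64-fold lower. Called lower genes went from a median control mean of 8.54 to a median mutant mean of 5.70, and 95 of them had a control mean above 10. For 41 of them the mutant mean lay under the lower quartile of its own arrays, near background, where the size of a fall is not well measured. The fat body marker Lsp2 read 5.47 in controls, above that quartile. Falls ending at such levels, as for He at a mutant mean of 5.44, may be no better measured. Counted as probe sets, 490 of 18769 were called (2.61%), 97 higher (0.517%) and 393 lower (2.09%). The balance depends on the fit: with array weights 661 were higher and 671 lower, and with any one disc array left out 17 to 29 were higher and 215 to 382 lower. The arrays of the groups did not overlap for any of the 413 called genes, nor for 58% of all genes, so lack of overlap is not repeated below as a result.

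**Figure D1:**
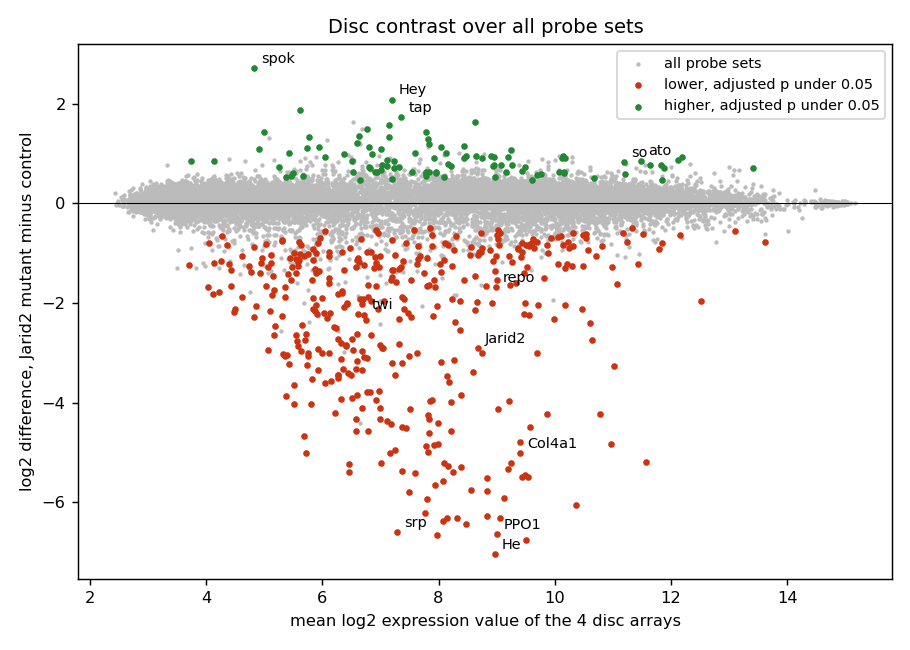
Log2 difference between Jarid2 mutant and control disc cells (vertical axis) against the mean log2 expression value of the 4 disc arrays (horizontal axis), 1 point per probe set. The 393 called lower (red) reach a difference of -7.04 for He, while the 97 called higher (green) reach 2.71 for spok.

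Many blood cell genes fell steeply, and 6 of the 15 largest falls were genes of the haemocyte, crystal cell or Nimrod lists. Of 17 measured plasmatocyte and general haemocyte genes 11 fell and 1 rose, and the list median was -3.38 against 0.08 over all genes, where 2.79% of genes were called lower. The GATA factor gene srp, which sets blood cell fate, read 10.41 and 10.77 in control arrays against 3.74 and 4.24 in mutant arrays, a difference of -6.60 ± 0.26 (adjusted p = 1.19e-05). In the mutants srp lay under the lower quartiles of those arrays. He, which encodes a haemocyte surface glycoprotein, read 12.18 and 12.79 in control arrays against 4.69 and 6.20 in mutant arrays (-7.04 ± 0.46, adjusted p = 0.000125). The mutant arrays differed from each other more for He than for srp, and both stayed far below the controls.

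Some receptors for particles and debris fell as well, beside 2.79% of all genes called lower. NimC1, a phagocytosis receptor of plasmatocytes, read 9.18 and 10.05 in control arrays against 4.93 and 5.34 in mutant arrays (-4.48 ± 0.29, adjusted p = 0.00012). The bacterial receptor gene eater read 9.82 and 10.96 in control arrays against 4.44 and 4.75 in mutant arrays (-5.80 ± 0.38, adjusted p = 0.00013). Both were about 1 log2 unit higher in the second control array than in the first. The scavenger receptor genes Sr-CI and Sr-CIII differed by -5.21 ± 0.46 (adjusted p = 0.000676) and -2.85 ± 0.31 (adjusted p = 0.00225). Of 12 measured Nimrod and Draper receptor genes 6 fell and 0 rose, including the secreted Nimrod genes NimB4 at -5.92 ± 0.37 (adjusted p = 0.000101), NimB1 at -4.57 ± 0.42 (adjusted p = 0.000834), NimB5 at -2.90 ± 0.41 (adjusted p = 0.00897) and NimB2 at -1.48 ± 0.27 (adjusted p = 0.0306). NimB4, NimB5, He and NimC1 lie next to each other among the measured genes of arm 2L, the group where Nimrod genes are clustered in the fly genome. The call was lost, with adjusted p in parentheses, without either mutant array for NimB5 (0.0671 to 0.072) and without any one of the 4 disc arrays for NimB2 (0.0703 to 0.24). With all arrays quantile normalized the call was lost for NimB2 (-0.83, adjusted p = 0.231). Sr-CIII, NimC1, eater, Sr-CI, NimB4 and NimB1 were called with each disc array left out in turn.

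Of 5 crystal cell genes 2 fell and 0 rose, beside 2.79% of all genes called lower. The others lay above 0, so that the list median was 0.10. PPO1, a prophenoloxidase gene of crystal cells, read 11.42 and 13.21 in control arrays against 5.62 and 5.73 in mutant arrays (-6.64 ± 0.69, adjusted p = 0.00172). PPO2, its partner, read 11.32 and 13.25 in control arrays against 6.78 and 6.80 in mutant arrays (-5.49 ± 0.71, adjusted p = 0.00546). These genes showed the widest gap between the 2 control arrays among the haemocyte genes named here, the second being higher by close to 2 log2 units, while the mutant arrays agreed closely. The Runx factor gene lz, which specifies crystal cells and also acts in eye progenitors, gave 0.63 ± 0.15 (adjusted p = 0.0799) and was not called. Of 6 lamellocyte genes, the class of blood cell that wraps parasites, 0 were called by limma and 0 had an unadjusted p under 0.05, although 6 of 6 lay below 0. Calls did not hold, with adjusted p in parentheses, without the second mutant array for PPO2 (0.0543). PPO1 was called with each disc array left out in turn.

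**Figure D2:**
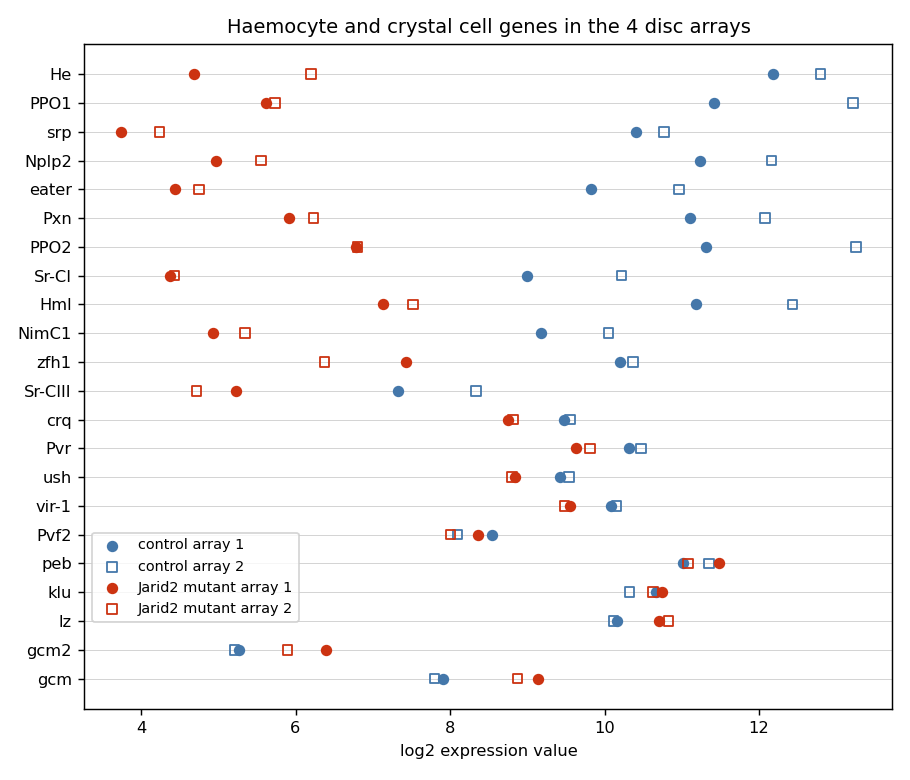
Log2 expression values (horizontal axis) of the measured plasmatocyte, general haemocyte and crystal cell genes in each disc array, with controls in blue and Jarid2 mutants in red, filled circles for array 1 and open squares for array 2, ordered by the difference. He, at the top, differs by -7.04 and gcm, at the bottom, by 1.15.

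In bulk arrays fewer cells of a type and less RNA per cell cannot be told apart, and that holds for every group of genes here. The haemocyte list had 10 lower calls whichever disc array was left out and 13 when the disc arrays were fitted alone, and its median was -2.49 under quantile normalization of all arrays. Other haemocyte genes with large falls were Nplp2, a neuropeptide-like precursor gene (-6.44 ± 0.58, adjusted p = 0.000817), Pxn, which encodes the matrix peroxidase peroxidasin (-5.51 ± 0.32, adjusted p = 6.67e-05), Hml, which encodes the clotting protein hemolectin (-4.49 ± 0.47, adjusted p = 0.00186), and the zinc finger homeodomain factor gene zfh1 (-3.38 ± 0.31, adjusted p = 0.000811). Hml and zfh1 kept mutant means of 7.32 and 6.90, well over background. Pvr, the receptor gene for PDGF and VEGF related ligands, changed by -0.67 ± 0.13 (adjusted p = 0.0336). The member that rose was gcm, at 1.15 ± 0.18 (adjusted p = 0.016), a factor that acts in glia and neurons as well as in blood cells. Calls ended, with adjusted p in parentheses, without any one of the 4 disc arrays for gcm (0.06 to 0.135) and Pvr (0.0932 to 0.276). No call remained after quantile normalization of all arrays for gcm (0.84, adjusted p = 0.115). Nplp2, Pxn, Hml and zfh1 were called with each disc array left out in turn.

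Basement membrane genes fell beside the blood cell genes. Of 14 measured matrix genes 7 fell and 0 rose, with a list median of -0.70, beside 2.79% of all genes called lower. The type IV collagen chain gene Col4a1 read 11.43 and 12.38 in control arrays against 6.84 and 6.96 in mutant arrays (-5.01 ± 0.33, adjusted p = 0.00013). Its partner chain vkg read 11.40 and 12.19 in control arrays against 6.97 and 7.06 in mutant arrays (-4.78 ± 0.30, adjusted p = 0.000107). The 2 collagen chain genes thus fell by similar amounts and stayed above background in mutants. Glt, a glutactin gene of the matrix, changed by -6.31 ± 0.20 (adjusted p = 4.93e-06), Tig, an integrin ligand, by -3.07 ± 0.35 (adjusted p = 0.00298), SPARC, which binds collagen IV, by -2.40 ± 0.16 (adjusted p = 0.00014), and the perlecan gene trol by -0.91 ± 0.12 (adjusted p = 0.00529). A further probe set of trol was also called lower, at -0.90, and others, dimmer, lay between -0.32 and 0.13 and were not called. The laminin chain genes were not called. The marker averages above show haemocyte genes falling in the same arrays, and their part in the matrix result was not tested. Calls were missed, with adjusted p in parentheses, without the second mutant array for trol (0.0543). Averaged over every probe set naming the gene, no call was made for trol (-0.27, adjusted p = 0.271). Tig, SPARC, Col4a1, vkg and Glt were called with each disc array left out in turn.

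Some genes of humoral immunity fell, while most did not pass the test. The Toll ligand gene spz read 8.81 and 9.99 in control arrays against 5.41 and 4.54 in mutant arrays (-4.43 ± 0.38, adjusted p = 0.000637). The gene for pirk, an inhibitor of the Imd pathway, read 8.48 and 9.45 in control arrays against 5.30 and 5.76 in mutant arrays (-3.44 ± 0.31, adjusted p = 0.000746). The second control array was the higher of its pair in both. Of 20 genes of peptidoglycan recognition and the Imd and Toll pathways 5 fell and 0 rose, with a list median of -0.10 and beside 2.79% of all genes lower, the other three being PGRP-LB, an amidase gene (-3.12 ± 0.44, adjusted p = 0.00938), PGRP-LF, a receptor that dampens Imd signalling (-3.08 ± 0.49, adjusted p = 0.0166), and PGRP-LA (-1.61 ± 0.23, adjusted p = 0.0092). The NF-kappaB factor gene Rel gave -1.03 ± 0.23 (adjusted p = 0.0649) and was not called. Antimicrobial peptide genes followed in part, with 2 of 10 lower and 0 higher: the antifungal peptide gene Drs read 9.32 and 10.95 in control arrays against 5.27 and 5.79 in mutant arrays (-4.61 ± 0.45, adjusted p = 0.00127), and Mtk changed by -3.64 ± 0.55 (adjusted p = 0.0122). Of the JAK/STAT and Turandot list 2 of 10 fell, with a median of 0.04, Tep4, a thioester protein gene of blood progenitors, by 1.96 ± 0.24 and the receptor-like inhibitor gene et by 3.16 ± 0.40. Significance was lost, with adjusted p in parentheses, without either mutant array for PGRP-LB (0.0701 to 0.0782) and PGRP-LF (0.1 to 0.114), without the second control array or either mutant array for PGRP-LA (0.0519 to 0.0916) and Mtk (0.0786 to 0.103) and without the second mutant array for et (0.057). With all arrays quantile normalized the call was lost for PGRP-LF (-2.35, adjusted p = 0.0727). Drs, Tep4, spz and pirk were called with each disc array left out in turn.

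Beside 2.79% of all genes called lower, 1 of 13 C-type lectin genes fell and 0 rose. It was lectin-24Db, whose product belongs to the family of sugar-binding proteins, and it read 11.60 and 11.86 in control arrays against 5.77 and 6.14 in mutant arrays (-5.78 ± 0.17, adjusted p = 4.93e-06). The other 12 lay between -0.16 and 0.50. Secreted relatives of chitinases called imaginal disc growth factors fell as well, Idgf6 by 4.23 ± 0.34 from a control mean of 12.89, and Idgf2 by 3.01 ± 0.28. These growth factor genes and the next 2 genes were chosen after their values were seen. The immune-regulated catalase gene Irc changed by -4.25 ± 0.25 (adjusted p = 7.56e-05). The dopachrome-converting enzyme gene yellow-f changed by -4.85 ± 0.13 (adjusted p = 4.93e-06), reading 10.17 and 10.53 in control arrays against 5.52 and 5.48 in mutant arrays, so that the replicates were close and the groups far apart.

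Several metabolic and lysosomal enzyme genes, which form no list, were among the called falls. The calcium-binding protein gene regucalcin was one of the brightest genes lost, reading 13.98 and 14.37 in control arrays against 8.77 and 9.19 in mutant arrays (-5.20 ± 0.17, adjusted p = 5.53e-06), and a further probe set of it fell by 6.04, while a dim one between 4.70 and 5.07 was not called. Gs1, a glutamine synthetase gene, read 10.39 and 10.20 in control arrays against 6.62 and 6.30 in mutant arrays (-3.84 ± 0.18, adjusted p = 2.84e-05). Oat, which encodes ornithine aminotransferase, changed by -4.13 ± 0.20 (adjusted p = 2.89e-05), and P5CS, of proline synthesis, by -2.49 ± 0.27 (adjusted p = 0.00204). Miox, the oxygenase gene of inositol breakdown, ended at a mutant mean of 3.21, under the lower quartile, with a difference of -5.01 ± 0.36 (adjusted p = 0.000189). The lysosomal mannosidase genes LManI and LManII changed by -5.39 ± 0.36 (adjusted p = 0.000143) and -2.74 ± 0.19 (adjusted p = 0.000189). All of these genes were chosen after their values were seen, and each kept its call with any one disc array left out.

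Among detoxification genes more were called lower than higher. Of 83 measured genes in the cytochrome P450 list 6 fell (7.23%) and 0 rose, beside the 2.79% of all genes that were lower. The falls were led by Cyp4ac1 at -4.66 ± 0.45 (adjusted p = 0.00108), Cyp12c1 at -2.74 ± 0.30 (adjusted p = 0.00225) and Cyp12e1 at -2.33 ± 0.22 (adjusted p = 0.000936). That list does not hold the cytochrome P450 genes spok and sad, which were called higher and are described below. Of 34 glutathione transferase genes 3 fell (8.82%) and 1, GstE14, rose. Besides GstD3 the lower ones were GstO3 (-0.56 ± 0.09, adjusted p = 0.0223) and GstD4 (-1.21 ± 0.24, adjusted p = 0.0456). GstD3 fell by 1.54 ± 0.23 in discs and by 1.56 ± 0.23 in larvae (adjusted p = 0.0129). Of 105 cuticle protein genes 1 was called: Cpr49Ac read 11.11 and 11.17 in control arrays against 8.89 and 8.75 in mutant arrays, with replicates within 0.14 of each other, and changed by -2.32 ± 0.11 (adjusted p = 2.23e-05). The threshold was missed, with adjusted p in parentheses, without the second control array or either mutant array for GstD3 (0.0752 to 0.103) and GstD4 (0.136 to 0.306) and without any one of the 4 disc arrays for GstO3 (0.072 to 0.192). Under quantile normalization of all arrays no call was made for GstD3 (-0.87, adjusted p = 0.395). Cyp4ac1, Cyp12c1, Cyp12e1 and Cpr49Ac were called with each disc array left out in turn.

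Receptors of the methuselah-like family, a list added after the values were seen, went both ways. Of 14 measured, 5 fell and 3 rose, beside 2.79% of all genes called lower and 0.659% called higher. mthl6 read 10.65 and 11.95 in control arrays against 4.44 and 4.84 in mutant arrays (-6.66 ± 0.47, adjusted p = 0.000189). mthl2 read 8.76 and 9.38 in control arrays against 3.95 and 3.73 in mutant arrays (-5.24 ± 0.21, adjusted p = 1.23e-05), with both mutant arrays under their lower quartiles. These 2 were high in controls. In mutants mthl2 was near background and mthl6 lay somewhat above it. Also lower were mthl12 (-2.94 ± 0.27, adjusted p = 0.000834), mthl7 (-2.62 ± 0.27, adjusted p = 0.00169) and mthl13 (-1.74 ± 0.32, adjusted p = 0.0333). In the opposite direction, mthl8 rose to 8.40 and 8.50 in mutants from 7.18 and 7.16 in controls (1.28 ± 0.12, adjusted p = 0.00116), mthl14 by 0.84 and mthl15 by 1.01. The call was lost, with adjusted p in parentheses, without the second control array or either mutant array for mthl13 (0.0782 to 0.24), without the second control array for mthl14 (0.0589) and without any one of the 4 disc arrays for mthl15 (0.0767 to 0.293). No call remained after quantile normalization of all arrays for mthl15 (1.24, adjusted p = 0.0513). Averaged over every probe set naming the gene, no call was made for mthl15 (0.78, adjusted p = 0.0587). mthl6, mthl2, mthl12, mthl7 and mthl8 were called with each disc array left out in turn.

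Some transcripts of glia and myoblasts were also lower, by less, beside 2.79% of all genes called lower. Of 13 glial genes 4 fell and 1 rose, with 8 below 0 and a list median of -0.26. At an unadjusted p under 0.05, 4 of the 13 were lower and 3 higher. The homeodomain factor gene repo, which marks nearly all glia, read 9.95 and 9.69 in control arrays against 8.31 and 7.97 in mutant arrays (-1.68 ± 0.23, adjusted p = 0.00853). The glial surface protein gene wrapper read 6.27 and 5.97 in control arrays against 4.76 and 4.66 in mutant arrays (-1.41 ± 0.16, adjusted p = 0.0029). The glutamine synthetase gene Gs2 changed by -1.05 ± 0.16 (adjusted p = 0.0112). Other glial genes were not called, such as Gli at 0.24 ± 0.17 (adjusted p = 0.627) and moody at -0.31 ± 0.17 (adjusted p = 0.498). Of 14 muscle and myoblast genes 2 fell, twi, the bHLH factor of muscle precursors, which read 8.29 and 7.39 in control arrays against 5.85 and 5.37 in mutant arrays (-2.23 ± 0.29, adjusted p = 0.00545), and the FGF receptor gene htl (-1.66 ± 0.23, adjusted p = 0.0086), which glia also use. The median of the 14 muscle and myoblast genes was -0.18, with 10 below 0. Him, a muscle progenitor gene outside the lists, chosen after its value was seen, changed by -2.80 ± 0.27 (adjusted p = 0.00116). Calls did not hold, with adjusted p in parentheses, without the first control array or the second mutant array for repo (0.0598 to 0.0867) and Gs2 (0.0799 to 0.0921) and without the second mutant array for twi (0.0571) and htl (0.0715). Quantile normalization of all arrays ended the call for Gs2 (-0.54, adjusted p = 0.14) and htl (-1.0, adjusted p = 0.109). wrapper and Him were called with each disc array left out in turn.

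The 2 control arrays differed in these transcripts. Of the 334 genes called lower, 258 were higher in the second control array than in the first, with a median difference of 0.36 between these 2 replicates against -0.01 over all genes. The haemocyte markers averaged 10.58 in the first and 11.59 in the second. By contrast, twi, htl, Him, repo, wrapper and Gs2 were all higher in the first control array. Between the mutant arrays the median difference over the 334 genes was -0.01.

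Of the eye genes 3 were called, all higher in the mutant cells. Of 11 retinal determination genes 1 rose and 0 fell, with 10 above 0 and a list median of 0.39. The homeodomain factor gene so, of the retinal determination network, read 10.70 and 10.84 in control arrays against 11.54 and 11.66 in mutant arrays (0.83 ± 0.10, adjusted p = 0.00491). Of 23 photoreceptor specification genes 2 rose and 0 fell, with a median of 0.43: the proneural gene ato, which selects the first photoreceptor, read 11.02 and 11.08 in control arrays against 11.73 and 12.08 in mutant arrays (0.86 ± 0.15, adjusted p = 0.0238), and the homeobox gene ro, of later photoreceptors, read 8.62 and 8.82 in control arrays against 9.53 and 9.77 in mutant arrays (0.93 ± 0.14, adjusted p = 0.013). The paired-domain gene ey at 0.70 ± 0.15 (adjusted p = 0.0636) and the receptor gene sev at 0.93 ± 0.20 (adjusted p = 0.0583) were not called. Of the 23 photoreceptor specification genes 5 lay below 0. At an unadjusted p under 0.05, 10 of the 23 were higher and 2 lower. The photoreceptor markers elav at -0.49 ± 0.20 (adjusted p = 0.338) and chp at -0.48 ± 0.40 (adjusted p = 0.736) were not called either. Over all genes 0.659% were called higher. Calls ended, with adjusted p in parentheses, without the second mutant array for so (0.057) and without either control array or the second mutant array for ato (0.134 to 0.162) and ro (0.0508 to 0.122). With all arrays quantile normalized the call was lost for ato (0.84, adjusted p = 0.117).

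Some genes of Notch signalling rose. Of 16 measured pathway and target genes 4 rose and 0 fell, with 15 above 0 and a median of 0.42, and 0.659% of all genes were called higher. Brd, which encodes a small antagonist of Neuralized, read 11.71 and 11.73 in control arrays against 12.56 and 12.75 in mutant arrays (0.93 ± 0.15, adjusted p = 0.0172). Its relatives Ocho and E(spl)m4-BFM changed by 0.90 ± 0.15 (adjusted p = 0.0216) and 0.71 ± 0.13 (adjusted p = 0.0276), and the bHLH repressor gene E(spl)m5-HLH by 0.63 ± 0.11 (adjusted p = 0.0276). These rises rest on small differences between tight replicates. Without the first mutant array 1 gene of the list was called, without any one of the other disc arrays 0 were, and with the disc arrays fitted alone 2 were. The cell cycle list had a median of 0.33 with 16 of 17 genes above 0, but limma called 0 of them, and 10 had an unadjusted p under 0.05, all higher. These shifts stand beside a median of 0.08 over all genes and beside the loss of haemocyte transcripts in the same arrays, whose part in them was not tested. Calls were missed, with adjusted p in parentheses, without any one of the 4 disc arrays for Brd (0.0623 to 0.153), E(spl)m4-BFM (0.0692 to 0.212) and E(spl)m5-HLH (0.05 to 0.202) and without either control array or the second mutant array for Ocho (0.11 to 0.167). Under quantile normalization of all arrays no call was made for Ocho (0.83, adjusted p = 0.0529), E(spl)m4-BFM (0.84, adjusted p = 0.0597) and E(spl)m5-HLH (0.57, adjusted p = 0.0673).

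**Figure D3:**
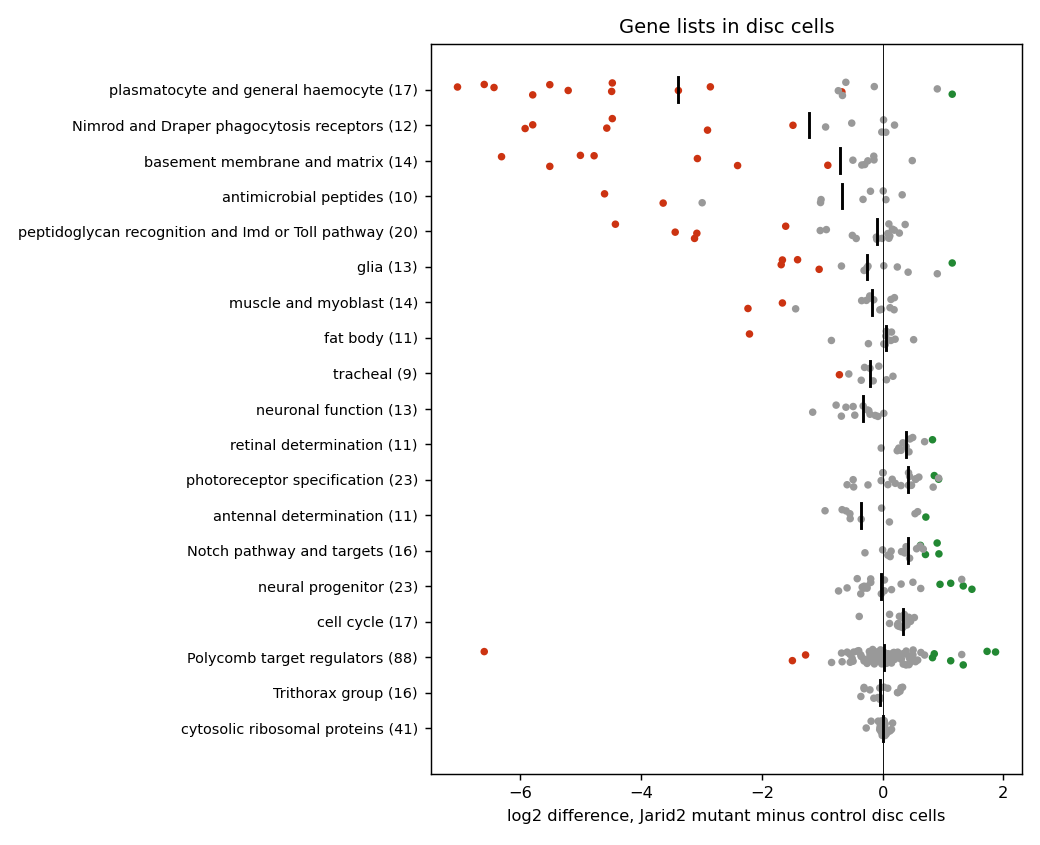
Log2 differences between Jarid2 mutant and control disc cells (horizontal axis) for the members of 19 gene lists, with the number of measured genes in parentheses, called genes in red (lower) or green (higher), others in grey, and a black bar at each list's median. The haemocyte list has its median at -3.38, and the retinal determination, photoreceptor specification and Notch lists have theirs at 0.39, 0.43 and 0.42.

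Antennal and dorsal head genes showed no common direction. Of 11 antennal genes 1 was called, dan, a nuclear factor of the distal antenna and of the eye, at 0.72 ± 0.13 (adjusted p = 0.0331). Over all genes 0.659% were called higher. The distal appendage gene Dll gave -0.54 ± 0.26 (adjusted p = 0.436) and ct -0.67 ± 0.29 (adjusted p = 0.361), neither called. The homeobox gene oc, required for the ocelli and head, read 7.98 and 7.99 in control arrays against 6.98 and 6.43 in mutant arrays (-1.28 ± 0.19, adjusted p = 0.0128), and the GATA factor gene pnr, of dorsal identity, 10.52 and 10.62 in control arrays against 9.32 and 8.83 in mutant arrays (-1.49 ± 0.30, adjusted p = 0.0467). Significance was lost, with adjusted p in parentheses, without any one of the 4 disc arrays for dan (0.0672 to 0.237) and pnr (0.0937 to 0.306) and without either control array or the second mutant array for oc (0.0683 to 0.103). No call remained after quantile normalization of all arrays for dan (0.73, adjusted p = 0.0662), oc (-0.71, adjusted p = 0.054) and pnr (-1.38, adjusted p = 0.298).

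The 15 largest rises include 0 genes of the 2 eye lists. The largest fitted rise was that of spok, the Halloween gene spookier, whose cytochrome P450 acts in an early step of ecdysone synthesis. It read 3.29 and 3.66 in control arrays against 6.29 and 6.08 in mutant arrays, a difference of 2.71 ± 0.21 (adjusted p = 0.000297). The controls lay under the lower quartile, so the size of this rise, and its rank above Hey, is not well measured. Halloween genes as a list were added after these values were seen. Of the 9 measured, 4 rose and 0 fell: sad, a cytochrome P450 gene of a late step, read 5.96 and 6.01 in control arrays against 7.14 and 7.26 in mutant arrays (1.21 ± 0.20, adjusted p = 0.0186), GstE14, the glutathione transferase gene also called noppera-bo, read 4.30 and 4.27 in control arrays against 5.83 and 5.59 in mutant arrays (1.43 ± 0.18, adjusted p = 0.00512), and nvd, the oxygenase gene that acts on cholesterol, changed by 0.84 ± 0.13 (adjusted p = 0.0122). The others were not called and lay below 0, 1 of them at an unadjusted p under 0.05. The list median was -0.0003, and 0.659% of all genes were called higher. These genes are known for the prothoracic gland, an endocrine gland near the brain and no part of the disc, and the mutant means ran from 4.16 for nvd to 7.20 for sad, beside mutant array medians of 5.55 and 5.57. The mutant arrays had lower quartiles of 4.21 and 4.27, so nvd lay near background in mutants too. The size of its rise is not well measured. In controls GstE14 lay just above their lower quartiles of 4.22 and 4.20, so the size of the GstE14 rise is not well measured either. The threshold was missed, with adjusted p in parentheses, without any one of the 4 disc arrays for sad (0.0878 to 0.153), without the first mutant array for GstE14 (0.051) and without either control array or the second mutant array for nvd (0.0666 to 0.117). Quantile normalization of all arrays ended the call for sad (0.90, adjusted p = 0.154). spok was called with each disc array left out in turn.

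Among neural regulators some rose. Hey, a bHLH gene that answers Notch in newborn neurons, read 6.10 and 6.21 in control arrays against 8.42 and 8.06 in mutant arrays (2.08 ± 0.14, adjusted p = 0.000173). tap, a gene related to vertebrate neurogenins, read 6.58 and 6.40 in control arrays against 8.58 and 7.86 in mutant arrays (1.73 ± 0.22, adjusted p = 0.00475). Both were chosen as large rises. Of 23 neural progenitor genes 4 rose and 0 fell, beside 0.659% of all genes higher, although 12 lay below 0, the list median was -0.02 and 3 were lower at an unadjusted p under 0.05: erm, a zinc finger gene of intermediate neural progenitors, read 6.09 and 5.97 in control arrays against 8.02 and 7.0 in mutant arrays (1.48 ± 0.29, adjusted p = 0.0411), the Snail family gene sna 6.44 and 6.53 in control arrays against 8.09 and 7.55 in mutant arrays (1.34 ± 0.20, adjusted p = 0.0126), the orphan nuclear receptor gene tll 7.38 and 7.59 in control arrays against 8.60 and 8.63 in mutant arrays (1.13 ± 0.16, adjusted p = 0.00779), and nab, a transcriptional cofactor gene, 8.09 and 8.23 in control arrays against 9.07 and 9.16 in mutant arrays (0.95 ± 0.12, adjusted p = 0.0042). In erm the first mutant array was higher than the second by about 1 log2 unit. The forkhead gene fd59A, which is known from octopaminergic neurons, read 4.46 and 4.91 in control arrays against 7.17 and 5.94 in mutant arrays (1.87 ± 0.37, adjusted p = 0.0456) and had the same order of arrays. Genes of mature neurons gave no calls. Of 13 such genes 0 were called by limma, 12 lay below 0, the median was -0.32, and 4 had an unadjusted p under 0.05, all lower, the lowest being Gad1, which encodes the GABA-making enzyme, at -1.16 ± 0.26 (adjusted p = 0.0736). The call was lost, with adjusted p in parentheses, without either control array or the first mutant array for erm (0.0551 to 0.261), sna (0.0636 to 0.0847) and fd59A (0.106 to 0.24), without the first control array or either mutant array for tll (0.0581 to 0.0752) and without the second mutant array for nab (0.0511). With all arrays quantile normalized the call was lost for erm (1.03, adjusted p = 0.0546) and nab (0.69, adjusted p = 0.0521). Hey and tap were called with each disc array left out in turn.

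**Figure D4:**
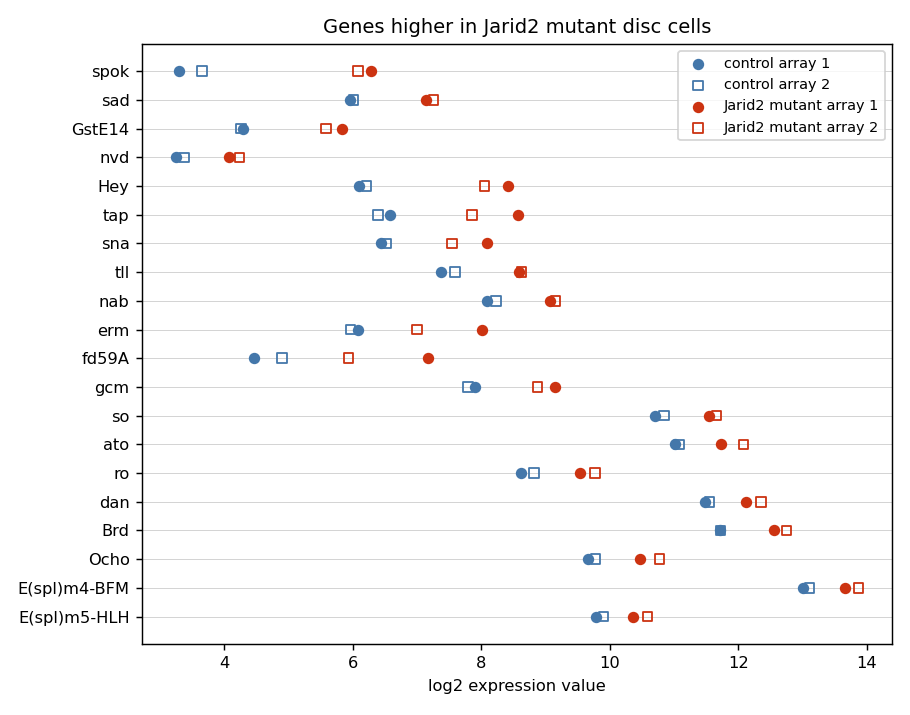
Log2 expression values (horizontal axis) of 20 genes called higher in Jarid2 mutant disc cells, in each disc array, with controls in blue, mutants in red, filled circles for array 1 and open squares for array 2. The control arrays of spok read 3.29 and 3.66 against 6.29 and 6.08 in mutants, whereas for eye genes such as so the shift is 0.83.

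Among the other genes of the 15 largest rises, the fatty acid transport protein gene Fatp2 changed by 1.44 ± 0.18 (adjusted p = 0.00512), though a dim further probe set gave 0.18, the transmembrane serine protease gene flz by 1.34 ± 0.19 (adjusted p = 0.009), and tut, an RNA-binding protein gene of the male germline, by 1.57 ± 0.32 (adjusted p = 0.0499). Among genes with only a CG number CG42272 changed by 1.19 ± 0.16 (adjusted p = 0.00726), CG11294 by 1.11 ± 0.21 (adjusted p = 0.0324) and CG6026 by 1.09 ± 0.13 (adjusted p = 0.00393), the latter 2 outside the 15. Of the 15 largest falls 5 were of genes with only a CG number. CG42807 read 12.46 and 13.31 in control arrays against 5.26 and 7.0 in mutant arrays (-6.75 ± 0.57, adjusted p = 0.000515), CG30148 changed by -6.31 ± 0.40 (adjusted p = 0.000101), CG33465 by -6.28 ± 0.20 (adjusted p = 4.93e-06) and CG5397 by -6.21 ± 0.24 (adjusted p = 9.17e-06). Such unnamed genes made up 139 of the 334 lower and 23 of the 79 higher. Calls did not hold, with adjusted p in parentheses, without the second mutant array for Fatp2 (0.057), without the second control array or either mutant array for flz (0.0688 to 0.0867) and CG42272 (0.0559 to 0.0632), without any one of the 4 disc arrays for tut (0.186 to 0.284) and without either control array or the first mutant array for CG11294 (0.123 to 0.18). Under quantile normalization of all arrays no call was made for Fatp2 (0.97, adjusted p = 0.0734) and tut (1.05, adjusted p = 0.281). Averaged over every probe set naming the gene, no call was made for Fatp2 (0.81, adjusted p = 0.139). CG6026, CG42807, CG30148, CG33465 and CG5397 were called with each disc array left out in turn.

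Chromatin genes of the Polycomb and Trithorax systems gave no calls besides Jarid2, and some target genes were called. Of 7 measured genes of PRC1, PhoRC and PR-DUB and of 16 Trithorax group genes 0 were called by limma, and the numbers with an unadjusted p under 0.05 were 0 and 3. Of 4 measured Hox genes 0 were called by limma and 1 had an unadjusted p under 0.05, Antp at -0.95 ± 0.22 (adjusted p = 0.0773). Of 88 Polycomb target regulators 6 rose and 3 fell (6.82% and 3.41%), with a median of 0.02, beside 0.659% higher and 2.79% lower of all genes. These 9 were named above, since srp, oc and pnr fell and so, ato, sna, tll, tap and fd59A rose. The list was drawn up from general knowledge, and no binding or histone mark was measured in these arrays.

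In whole larvae most of these genes were not called. Over the 334 genes lower in discs the median larval difference was 0.04, and over the 79 higher ones 0.07, against 0.01 over all genes. The difference between the disc and larval effects, tested in the same fit, was called for 232 of the 334 and 27 of the 79, where 3.66% of all genes were (2.89% of probe sets). The 334 and 79 genes were picked by their disc difference, which is part of this test. Their high shares therefore follow in part from the choice and are no separate evidence. For srp the effect in discs minus that in larvae was -6.21 ± 0.37 (adjusted p = 0.000134), for He -7.09 ± 0.65 (adjusted p = 0.000969), for Col4a1 -5.33 ± 0.47 (adjusted p = 0.000753) and for PPO1 -8.41 ± 0.97 (adjusted p = 0.0034), the last with a larval difference of 1.77 ± 0.69 (adjusted p = 0.355). Of the 11 haemocyte genes lower in disc cells, NimC1 was also called in larvae, at -1.52 ± 0.29 (adjusted p = 0.0392), and the others were not.

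Most genes called in discs were not called in larvae, but larval calls were more frequent among these genes than over all genes. Of the 334 genes lower in discs 9 were also lower in larvae and 16 were higher there. Of the 79 higher in discs 3 were higher and 4 lower in larvae. Counting both larval directions, each set had a larger share called in larvae than the 2.86% of all genes (2.4% of probe sets). Jarid2 and NimC1 are among the 9, as are repo, with a larval difference of -1.23 ± 0.23, and the thiol reductase gene GILT3, at -1.05 in discs and -3.0 in larvae. Opposite directions were seen for sad, at -1.13 in larvae and 2.34 ± 0.28 (adjusted p = 0.00402) for the difference, for the fat body gene fit, at -2.21 in discs and 1.23 in larvae with a difference of -3.44 ± 0.25 (adjusted p = 0.000318), and for HP1D3csd, at -4.12 and 2.48 with a difference of -6.60 ± 0.35 (adjusted p = 7.5e-05). The elongase gene Elovl7 fell by 7.45 ± 0.18 in larvae, but all 4 disc arrays read it under their lower quartiles, so that no fall could be seen there and its disc-minus-larval difference of 7.48 ± 0.25 (adjusted p = 2.5e-05) is a larval one.

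**Figure D5:**
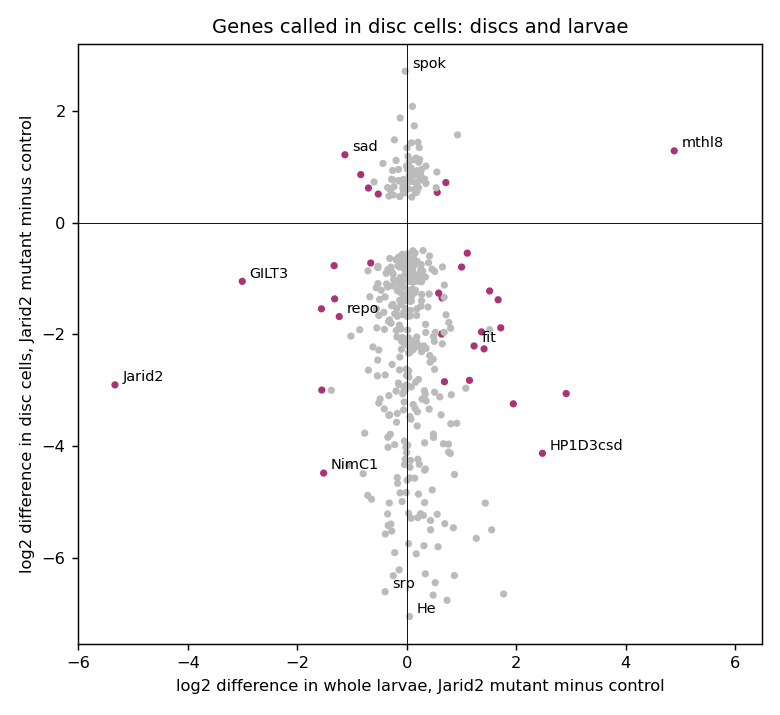
Log2 difference in disc cells (vertical axis) against that in whole larvae (horizontal axis) for the 413 genes called in disc cells, with genes also called in larvae in purple. The gene He is at 0.05 on the larval axis, while mthl8 is at 1.28 in discs and 4.89 in larvae and HP1D3csd at -4.12 and 2.48.

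Lists of general cell function gave no calls. In 14 of 38 lists, which hold 309 genes and include ribosomal, mitochondrial ribosomal, oxidative phosphorylation, heat shock, ecdysone response, cell death and male germline genes, limma called 0 genes, with 14 at an unadjusted p under 0.05 and higher and 8 lower. The medians were 0.00 over 41 cytosolic ribosomal protein genes, 0.03 over 71 oxidative phosphorylation genes and -0.07 over 8 heat shock and chaperone genes. In the cell death list skl, a pro-apoptotic gene, gave 1.48 ± 0.30 (adjusted p = 0.0513), not called. In the JNK and wound list the TNF ligand gene egr was the 1 called of 14, at 0.73 ± 0.14 (adjusted p = 0.0411). Of 9 tracheal genes 1 fell, sty, which encodes the receptor tyrosine kinase antagonist Sprouty and is also active in the eye, at -0.72 ± 0.14 (adjusted p = 0.0395). Of 17 piRNA pathway genes 1 rose, the helicase gene spn-E, at 0.53 ± 0.11 (adjusted p = 0.0489). Over all genes 0.659% were called higher and 2.79% lower. Calls ended, with adjusted p in parentheses, without the second control array or either mutant array for egr (0.158 to 0.26) and without any one of the 4 disc arrays for sty (0.104 to 0.235) and spn-E (0.178 to 0.308). No call remained after quantile normalization of all arrays for egr (0.59, adjusted p = 0.0977), sty (-0.67, adjusted p = 0.137) and spn-E (0.38, adjusted p = 0.16).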

How the data were processed

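RNA of sorted eye-antennal disc cells (4 arrays) and of whole larvae (6 arrays) was measured on 1-colour Affymetrix arrays, and samples were grouped by their titles. The authors deposited 1 table of log2 values, already normalized, for 18952 probe sets. The sources used here do not give the normalization. The submitters' processing notes name limma 3.4.3. Array number, 2 per group, limits the precision.

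From these values, 183 of the manufacturer's control sets were removed and 18769 were fitted with limma 3.58.1 in R 4.3.3 (lmFit and eBayes, 5 groups, 10 arrays, 5 residual and 2.78 prior degrees of freedom), with Benjamini-Hochberg adjustment over all of them. A gene is represented by its brightest probe set over the 10 arrays, among 13647 with 1 annotated gene, which gave 11982 genes. Another 402 probe sets name several genes and 4720 none here. On simulated data at 2-fold, the fit of all arrays recovered 77.8% of changed probe sets, and 0.57% of its calls were false. For the disc arrays alone these figures were 87% and 5.67%. Errors were drawn independently, without the difference between control arrays described above, so recovery under such a difference was not tested.

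Genes named follow a rule: Jarid2, the 15 largest rises and falls, up to 5 members of each list by p, the extremes of the disc-minus-larval difference, and the neighbours of Jarid2. Not all of these are described, and further genes were chosen after their values were seen. Members, lists and rule were chosen with earlier results of these data known. Same-numbered disc arrays deviated together at r = 0.09, so the numbers were not taken as pairs. Alternatives were other scalings, filters, variance priors, array weights, replicate block, disc arrays alone and each array left out.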

Additional observations from a re-analysis of the deposited data

Results flagged for a closer look

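For the genes below, the Jarid2 mutant effect in disc cells differed from that in whole larvae in the limma fit of all arrays (adjusted p at most 0.0452, n = 2 arrays per group). Values in parentheses are the disc effect minus the larval effect on the log2 scale. Apart from Elovl7 these genes were called by their disc difference, which is part of the difference tested here.

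Among haemocyte and Nimrod genes these were srp (-6.21), He (-7.09), NimC1 (-2.96), eater (-6.37), Sr-CI (-4.86), Sr-CIII (-3.01), NimB4 (-6.10), NimB1 (-4.71), NimB5 (-2.90), PPO1 (-8.41), PPO2 (-7.05), Nplp2 (-6.96), Pxn (-5.24), Hml (-3.69) and zfh1 (-3.58). Among matrix genes they were Col4a1 (-5.33), vkg (-5.25), Glt (-6.07), Tig (-3.41), SPARC (-2.28) and trol (-1.02). Among immune genes they were spz (-4.75), pirk (-4.06), PGRP-LB (-3.72), PGRP-LF (-3.89), Drs (-4.61), Mtk (-3.83), Tep4 (-2.31), et (-3.44), lectin-24Db (-6.09), Irc (-4.32), Idgf6 (-4.20), Idgf2 (-2.82) and yellow-f (-5.07).

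Among enzyme and cuticle genes they were regucalcin (-5.23), Gs1 (-3.49), Oat (-4.92), P5CS (-2.92), Miox (-6.45), LManI (-5.10), LManII (-2.75), Cyp4ac1 (-4.49), Cyp12c1 (-2.20), Cyp12e1 (-2.37) and Cpr49Ac (-2.38). The methuselah-like genes were mthl6 (-7.14), mthl2 (-5.54), mthl12 (-3.02), mthl7 (-2.61) and mthl8 (-3.60), and mthl8 rose in both tissues, by more in larvae. Among glial and myoblast genes they were wrapper (-1.47), Gs2 (-1.08), twi (-2.37) and Him (-3.02).

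Among genes higher in disc cells they were spok (2.74), sad (2.34), GstE14 (1.34), Hey (1.97), tap (1.59), so (0.72), Brd (1.19), CG42272 (1.17) and CG6026 (1.05). The genes known by number and lower in disc cells were CG42807 (-7.49), CG30148 (-7.18), CG33465 (-6.62) and CG5397 (-6.07). For Jarid2 the difference was positive, since the larval fall was larger, and the same holds for GILT3: Jarid2 (2.43) and GILT3 (1.96). The others were oc (-1.39), fit (-3.44), HP1D3csd (-6.60) and Elovl7 (7.48), of which Elovl7 lay under the lower quartile on all 4 disc arrays, where no fall could be seen.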

How the results depend on the processing

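Against 97 probe sets called higher and 393 lower, quantile normalization of all arrays gave 53 higher, array weights gave 661 and 671, and a 2-fold minimum left 26 higher. With the replicate number as a block, the fit of all arrays called 54 higher and 347 lower, and that of the disc arrays alone 66 and 352. Leaving out 1 array at a time gave 17 to 121 higher and 215 to 398 lower. Without the first and the second control array the higher counts were 23 and 17, and without the first and the second mutant array 27 and 29. The disc-minus-larval difference was called higher for 148 probe sets and lower for 394. That became 90 higher with quantile normalization of all arrays, and 66 to 187 higher and 220 to 382 lower with 1 array left out. The cause of these moves was not tested. Of 104 called genes named in the text, 56 were called under every alternative run for them. With the disc arrays fitted alone 20 of the 104 lost their call, among them twi, htl, ato, oc, PGRP-LB and mthl13. That fit shared 344 of the 490 called probe sets with the main fit. Some named genes that were not called gained a call elsewhere. With the disc arrays fitted alone, limma called sev (adjusted p = 0.0124) and lz (adjusted p = 0.0436), but not ey (adjusted p = 0.1). Array weights gave calls for sev, lz, ey, eya, Rel, Gad1, Antp and skl. Among other genes not called, Lsp2 (0.05) lay between -0.0377 and 0.1290 with 1 disc array left out. Elovl7 (0.04) was at -0.0098 and -0.0078 under quantile normalization of all arrays and within each tissue, and lay between -0.0468 and 0.1189 with 1 array left out. Genes near background in 1 group, such as spok in controls and srp in mutants, have no well measured fold.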

Other observations

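Genes called lower lay on all major chromosome arms, from 2.14% of measured genes on X to 3.42% on 2R, and genes called higher from 0.427% on X to 1.07% on 3L, the arm that carries Jarid2. Of the 50 measured genes nearest to Jarid2, 25 on each side, 0 were called higher and 1 lower by limma. Besides the Nimrod group on 2L, a run of 4 neighbouring measured genes on 2R was lower throughout, consisting of Erasp, CG30088, CG30087 and CG33462. Runs of 3 were CG4250, CG30269 and CG30273 on 2R, and CG31174, CG31431 and CG6656 on 3R. These runs were noticed after the values were seen and were not tested against chance.

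Of the 413 called genes 38 had further probe sets naming only that gene, 55 in all. Of these 41 had the sign of the brightest set, 12 were called in that direction and 0 were called in the other.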
